A study of Mus musculus with 4 samples.

Results

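The *Pakap*, *Akap2* and *Palm2* locus is a run of 3 overlapping genes on mouse chromosome 4, and the 3 genes are the members described here, of 22063 genes listed in the deposited table. They were chosen by the contrast reported below, because *Pakap* had counts in both control libraries and none in either library of the other group, so their levels are a description and carry no test. The table gives the symbol Pakap to all 3 rows and the symbols Akap2 and Palm2 to none. The rows were therefore told apart by their identifiers, which GENCODE vM21 names *Palm2* (ENSMUSG00000090053), *Pakap* (ENSMUSG00000089945) and *Akap2* (ENSMUSG00000038729). Those names are used throughout.

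The study asked what silencing of the integrin β6 subunit gene *Itgb6* does to injured renal tubular cells. All 4 libraries came from TKPTS cells (TKPT in the sample labels), an immortalised mouse proximal tubular epithelial line grown as 1 cell line, so the libraries are cultures of that line and not animals. All cells were kept in 1% O2 for 24 h and returned to normal oxygen for 12 h. The si-NC group (labelled Scrambled, genotype WT) holds replicates 2 and 3, and the si-*Itgb6* group (labelled Itgb6-siRNA, genotype Itgb6 knockdown) holds replicates 1 and 3, the knockdown being by transfected siRNA and not a change to the genome. Nothing in the labels says that replicates were separate cultures, so p-values measure the spread between these libraries, which may be technical.

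A-kinase anchoring proteins tether protein kinase A, the kinase that cAMP switches on, to particular places in the cell. The *Akap2* product, also called AKAP-KL because it was described in kidney and lung, binds the regulatory subunits of the kinase and associates with the actin cytoskeleton. *Palm2* encodes a member of the paralemmin family, lipid-anchored proteins on the inner face of the plasma membrane. *Pakap* is the name for read-through transcripts that run through *Palm2* exons and continue into *Akap2* exons. In GENCODE vM21 the transcript of 5163 bases is annotated as coding and joins parts of both coding sequences. Those of 7576 and 1333 bases are annotated as subject to nonsense-mediated decay.

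The locus covers 462.7 kb on the plus strand, from 57434247 to 57896984 on chromosome 4 (GRCm38, GENCODE vM21). *Palm2* lies from 57434247 to 57712016, *Pakap* from 57568179 to 57896982 and *Akap2* from 57717657 to 57896984. The *Palm2* and *Akap2* annotations share no exonic base. *Pakap*, in contrast, is made almost wholly of the exons of the other two. Of its 8456 exonic bases, 6891 are also *Akap2* exon, 1413 are also *Palm2* exon and 152, or 1.80%, belong to *Pakap* alone. *Akap2* has 1272 bases of 8163 in no other member and *Palm2* has 2203 of 3616. RefSeq (GRCm38.p6) treats the whole stretch as 1 gene, Pakap, with 8 transcripts and with Akap2 and Palm2 among its synonyms, which is also how the table's symbols are written.

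**Figure D1:**
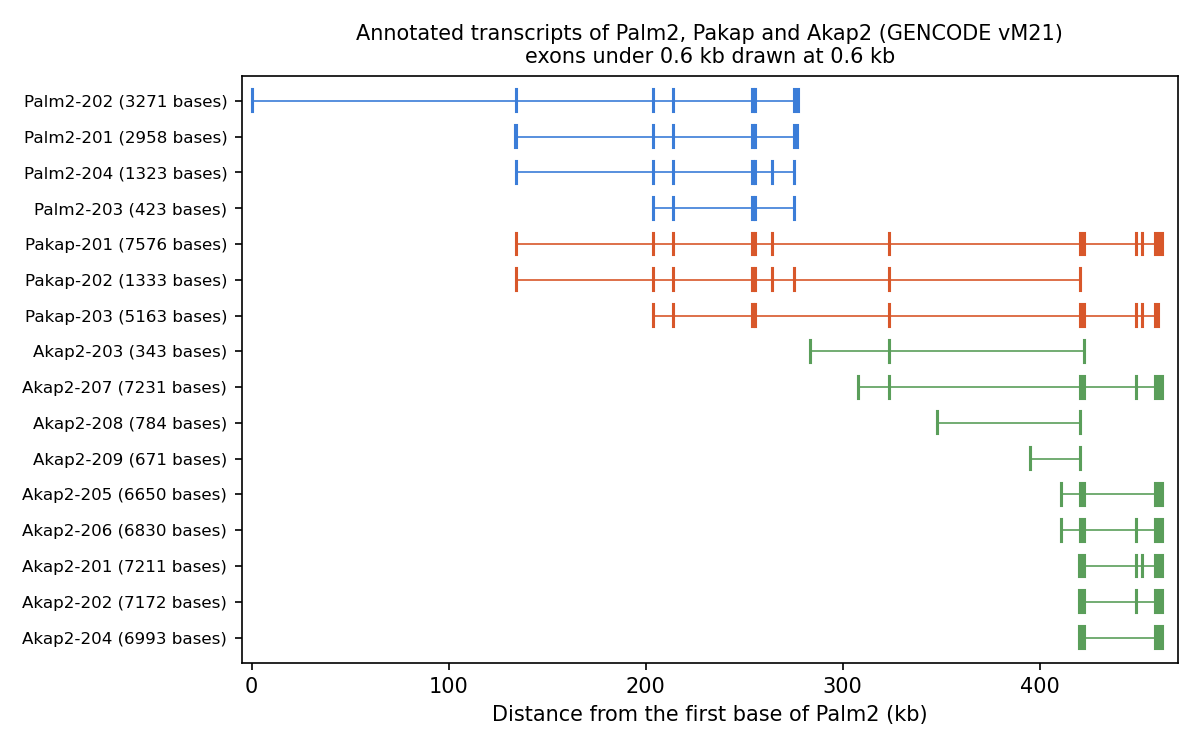
Annotated transcripts of *Palm2* (blue, 4 transcripts), *Pakap* (orange, 3 transcripts) and *Akap2* (green, 9 transcripts) against distance from the first base of *Palm2* in kb. Boxes are exons, with those under 0.6 kb drawn at 0.6 kb, lines are introns, and each label gives the transcript length in bases. The *Pakap* transcripts run through the exons of both other genes.

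The sequence that can separate *Pakap* from *Palm2* and *Akap2* is short. The coding *Pakap* transcript (ENSMUST00000150412), of 5163 bases, to which the *Pakap* values below correspond, has 4627 bases, or 89.6%, in *Akap2* exons and 384 in *Palm2* exons. It has 1 splice junction that no *Palm2* or *Akap2* transcript has, between 57689544 and 57757601. The coding sequence around that junction is shown beside the matching junction of the *Palm2* transcript of 2958 bases, between 57689544 and 57709451, because both leave the same exon. A further window, between 57857037 and 57883024, is the same in this *Pakap* transcript and in the *Akap2* transcript of 7231 bases and stands for the bases on which these cannot be told apart. Each window holds 30 bases on each side of the junction, 5′ to 3′ on the plus strand of GRCm38, with the bases after the junction in capitals.
Pakap: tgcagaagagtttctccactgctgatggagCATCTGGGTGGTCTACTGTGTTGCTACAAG
Palm2: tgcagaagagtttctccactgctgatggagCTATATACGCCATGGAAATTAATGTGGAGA
Pakap and Akap2: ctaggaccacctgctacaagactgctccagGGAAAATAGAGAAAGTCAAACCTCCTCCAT

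The 152 bases found in *Pakap* alone are the first of its coding transcript, from 57637823 to 57637974, and are annotated as coding with an incomplete start. They are shown because they are the only exonic bases of the locus that belong to this row by position. Their last 49 bases, in capitals, are an unbroken CT dinucleotide repeat, which leaves 103 bases of other sequence.
Pakap first bases: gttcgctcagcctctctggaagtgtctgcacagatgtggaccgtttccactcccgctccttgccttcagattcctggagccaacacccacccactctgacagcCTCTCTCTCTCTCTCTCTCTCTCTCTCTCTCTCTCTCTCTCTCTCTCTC

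The libraries held 15435087 to 17220285 estimated counts each. Levels in CPM are counts scaled to that total. Estimated counts share a read between genes when it fits more than 1, so they need not be whole. *Itgb6* itself had 285 and 284 counts in si-NC and 279 and 260 in si-*Itgb6*, a log2 fold change of -0.01 ± 0.13 (SE) with an adjusted p = 0.991 by edgeR's quasi-likelihood test, so the targeted gene did not set the labels apart and the groups below are the libraries labelled si-NC and si-*Itgb6*. All 5 epithelial markers (*Cdh1*, *Epcam*, *Krt8*, *Krt18* and *Krt19*) had at least 10 counts in every library. Of 11 proximal tubule markers, 4 reached that level and 5 (*Slc22a6*, *Slc22a8*, *Slc34a1*, *Slc5a12* and *Slc5a2*) were at 0 in every library. The proximal tubule list summed to between 30.02 and 35.11 CPM in si-NC and between 44.84 and 44.99 CPM in si-*Itgb6*, the epithelial list to 4908–4937 CPM and 4644–4690 CPM, the macrophage and leukocyte list to 133–142 CPM and 119–127 CPM, the endothelial list to 3.27–4.30 CPM and 2.72–4.25 CPM, and the fibroblast list to 3.21–3.31 CPM and 2.995–4.92 CPM; the part of these differences in the results below was not tested. The macrophage and leukocyte sum was almost wholly *Cd68* and *Csf1r*, while *Ptprc*, *Adgre1* and *Itgam* had at most 6 counts in any library. In bulk RNA, fewer cells that express a gene and less of its RNA per cell cannot be told apart.

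*Pakap*, the read-through, had counts in both si-NC libraries and was listed at 0 in both libraries labelled si-*Itgb6*. It had 63.8 estimated counts in si-NC replicate 2 and 62.51 in si-NC replicate 3. The values of the si-NC libraries lay close together and the groups did not overlap. In CPM, the si-NC libraries stood at 3.94 and 3.63, a mean of 3.78 ± 0.22 (SD, n = 2). Against a floor of 3 counts per library, *Pakap* was at least 18.7-fold lower in si-*Itgb6*, from the lower si-NC CPM and the higher of the floors. The floor allows for counting error in si-*Itgb6*, while the si-NC value enters the bound without its own counting error. Nor does the bound cover the error of dividing reads between overlapping rows. The deposited FPKM values, which scale fragments by transcript length and library size, were 0.763 and 0.703 for the control libraries and 0 for the others. These values chose the locus, so what follows from them, including shares, lengths and ranks, is a description. As the background for that contrast, 9.57% of the 11727 genes tested were called, by a fold change over 1.2 and an unadjusted p under 0.05 in edgeR's quasi-likelihood test, 5.2% being lower and 4.37% higher in si-*Itgb6*.

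*Akap2*, the anchoring protein gene whose exons make up most of the coding read-through, carried nearly all of the counts. It had 741.2 counts in si-NC replicate 2, 707.49 in si-NC replicate 3, 647 in si-*Itgb6* replicate 1 and 805 in si-*Itgb6* replicate 3. The 2 si-*Itgb6* libraries lay on either side of both si-NC libraries. On the CPM scale the means were 43.4 ± 3.29 in si-NC and 45.1 ± 4.46 in si-*Itgb6* (SD, n = 2 each). The fitted log2 fold change of si-*Itgb6* over si-NC was 0.07 ± 0.09 (SE), smaller than its error, and it was -0.04 without si-*Itgb6* replicate 3. In FPKM the means were 11.7 ± 0.296 and 11.4 ± 0.872, a log2 ratio of -0.04.

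*Palm2*, the paralemmin gene in which the read-through begins, was at 0 in si-NC replicates 2 and 3 and in si-*Itgb6* replicate 1, and had 4 counts in si-*Itgb6* replicate 3. An exact Poisson interval for those 4 counts runs from 1.09 to 10.2 at the 95% level and covers counting error only. The 4 counts lay just above the floor of 3 counts and the other libraries were at 0, so no fold was formed. On the FPKM scale *Palm2* reached 0.081 in that 1 library.

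The counts of the 3 rows were then added in each library. The locus sum was 805 in si-NC replicate 2, 770 in si-NC replicate 3, 647 in si-*Itgb6* replicate 1 and 809 in si-*Itgb6* replicate 3. The groups overlapped, with the highest and the lowest sums both in si-*Itgb6*. Scaled to the library totals, the sums were 49.7 and 44.7 CPM in si-NC and 41.9 and 48.5 CPM in si-*Itgb6*. A fit with the 3 rows replaced by their sum gave a log2 fold change of -0.05 ± 0.09 (SE). Leaving out a library moved it between -0.16 and 0.07, so its direction was not settled. The mean locus sum of si-*Itgb6* was 95.8% of the si-NC mean in CPM, 92.4% in counts and 92.0% in FPKM. If the si-NC *Pakap* counts were lost and the other rows stayed the same, the sum would stand at 92.0% of the si-NC CPM, a log2 change of -0.12. Both this and no change lie within the error of the fit, so reads that moved to *Akap2* and reads that were lost cannot be told apart from the sum.

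**Figure D2:**
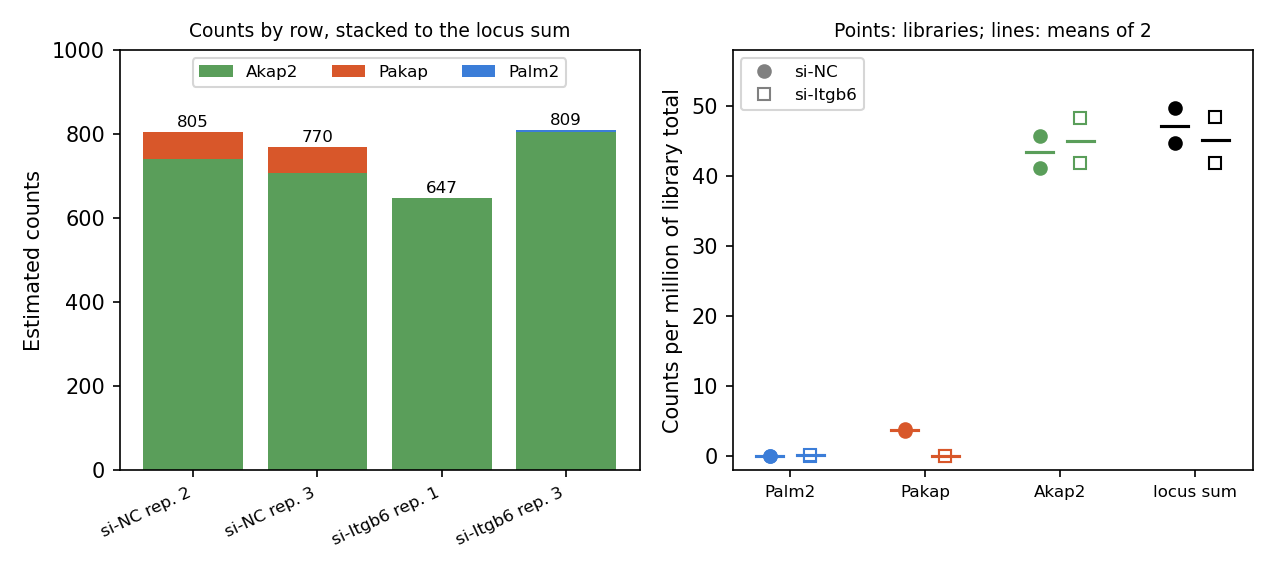
Left, estimated counts of *Akap2* (green), *Pakap* (orange) and *Palm2* (blue) stacked in each library, with the locus sum above each bar; right, CPM for each row and for the sum, filled circles for si-NC, open squares for si-*Itgb6*, and a line at each mean (n = 2). *Pakap* appears in the si-NC libraries only, while the locus sums of 805, 770, 647 and 809 overlap between groups.

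The counts that were not whole were those of *Pakap* and *Akap2* in si-NC. In si-NC replicate 2 the non-whole part was 0.8 for *Pakap* and 0.2 for *Akap2*. In si-NC replicate 3 it was 0.51 for *Pakap* and 0.49 for *Akap2*. In each si-NC library these added to a whole number, with *Palm2* at 0. In both si-*Itgb6* libraries every row of the locus was whole. Non-whole values were not rare in the table, with 1447 to 1500 rows in each library.

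As a share of the locus sum, *Pakap* took 7.93% in si-NC replicate 2, with an exact binomial interval of 6.18% to 10.0% at the 95% level. It took 8.12% in si-NC replicate 3, with an interval of 6.34% to 10.3%. The shares of the si-NC libraries differed by less than either interval. In si-*Itgb6*, the exact interval at the same level reached up to 0.569% for 0 of 647 counts and up to 0.455% for 0 of 809 counts. These intervals and limits cover counting error only and not the error of dividing reads between overlapping rows, which the estimated counts do not give. Per length, *Pakap* was 6.03% and 5.78% of the summed FPKM of the locus in si-NC. The FPKM sums were 12.7 and 12.2 in si-NC and 12.0 and 10.8 in si-*Itgb6*, so on this scale the groups did not overlap, with a log2 ratio of -0.12, although the counts did.

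The FPKM values also told which transcript length each row had been divided by, from the count, the FPKM and the library total. For *Pakap* the implied length was 5160 bases in si-NC replicate 2 and 5164 in si-NC replicate 3. Only the coding transcript, at 5163 bases, fitted within the rounding of the FPKM in each library, and the other *Pakap* transcripts, of 7576 and 1333 bases, did not. The *Palm2* value in si-*Itgb6* replicate 3 implied 2958 bases, the length of 1 of its 4 transcripts. The check rests on genes with 1 annotated transcript and at least 100 counts in every library, of which 487 of 527, or 92.4%, gave the annotated length within 1 base in all 4 libraries.

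*Akap2*, with its 9 transcripts, implied no single length. The values were 3848 and 3583 bases in si-NC replicates 2 and 3, and 3496 and 4483 bases in si-*Itgb6* replicates 1 and 3. The highest and the lowest were again the si-*Itgb6* libraries. No annotated *Akap2* transcript has such a length, since 3 are short, from 343 to 784 bases, and 6 are long, from 6650 to 7231 bases. Suppose that the *Akap2* FPKM is a sum over its transcripts, with the counts of each divided by its own length. The short transcripts then took between 3.96% and 10.7% of *Akap2* counts in si-NC replicate 2, the range depending on which lengths are paired. The ranges were 4.66% to 12.4% in si-NC replicate 3, 4.91% to 13.0% in si-*Itgb6* replicate 1 and 2.63% to 7.45% in si-*Itgb6* replicate 3. Over the 4 libraries the implied length of *Akap2* had a coefficient of variation of 11.6%, above that of 94.7% of the 8858 rows with at least 100 counts in every library, whose median was 0.972%. Accordingly, *Akap2* was highest by CPM and lowest by FPKM in the same library, si-*Itgb6* replicate 3.

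**Figure D3:**
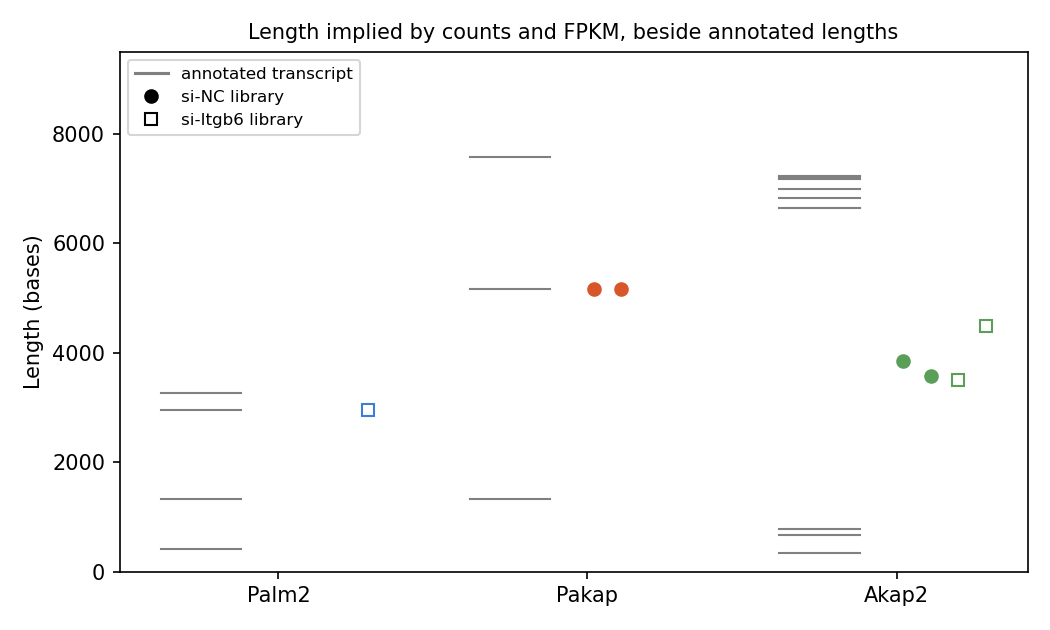
Length in bases implied by the estimated count, the FPKM and the library total, for each library in which the row was above 0 (filled circles, si-NC; open squares, si-*Itgb6*), beside the annotated transcript lengths of each gene (grey lines). *Palm2* and *Pakap* fall on 1 annotated transcript each, of 2958 and 5163 bases, while *Akap2* lies between its short and its long transcripts and differs between libraries, from 3496 to 4483 bases.

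The genes whose pattern was most like that of *Pakap* were taken among the 11454 rows with at least 10 estimated counts in both si-NC libraries, by the ratio of the higher si-*Itgb6* CPM to the lower si-NC CPM. They were chosen on the same contrast and carry no test. Next to *Pakap*, only Gm45713 was at 0 in both si-*Itgb6* libraries, with 11.35 and 20.1 counts in si-NC. Gm49450 followed with 85.26 and 146.85 counts in si-NC and 0 and 16.54 in si-*Itgb6*, and Gm10131 with 20.22 and 11.66 against 0 and 3.24. All 3 had counts that were not whole. *Aloxe3*, a lipoxygenase gene of the epidermis, had 15 and 14 counts against 1 and 5, and *Snai1*, which encodes the Snail repressor of E-cadherin, had 43 and 25 against 6 and 9, all of them whole. In the other direction, 0 of 11405 rows with at least 10 counts in both si-*Itgb6* libraries were at 0 in both si-NC libraries.

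As *Pakap* does with *Akap2*, both Gm45713 and Gm49450 share exonic bases on 1 strand with abundant genes in GENCODE vM21. Gm45713 stands in a group with the ribosomal protein gene *Rpl13a* and with *Flt3l*, whose sum was 25283 and 27392 counts in si-NC and 25167 and 27802 in si-*Itgb6*. Gm49450 stands with the α-tubulin genes *Tuba1a* and *Tuba1b*. Its group's sums were 32219.3 and 33373.59 counts in si-NC and 28670.23 and 30747.71 in si-*Itgb6*, not whole in any library, unlike the sums of the *Pakap* group. In si-NC, Gm45713 was 0.0449% to 0.0734% of its group's sum and Gm49450 was 0.265% to 0.440%, so these sums do not bear on the rows themselves. Gm10131, *Aloxe3* and *Snai1* share exonic bases with no other listed row on their strand.

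Such groups were then described over the whole table, a comparison chosen after the data had been seen. There were 394 groups, holding 1043 rows. Of 183 groups with a count that was not whole, 129, or 70.5%, added to a whole number within 0.02 in every library, as the *Pakap* group did. Among the rows of groups that were tested, 62 of 561 were called by the same rule, or 11.1%, against 9.49% of the 11166 tested rows outside groups. The 62 include the *Pakap* row, which was chosen on this contrast. With all groups summed, 9.56% of 11482 tested features were called.

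**Figure D4:**
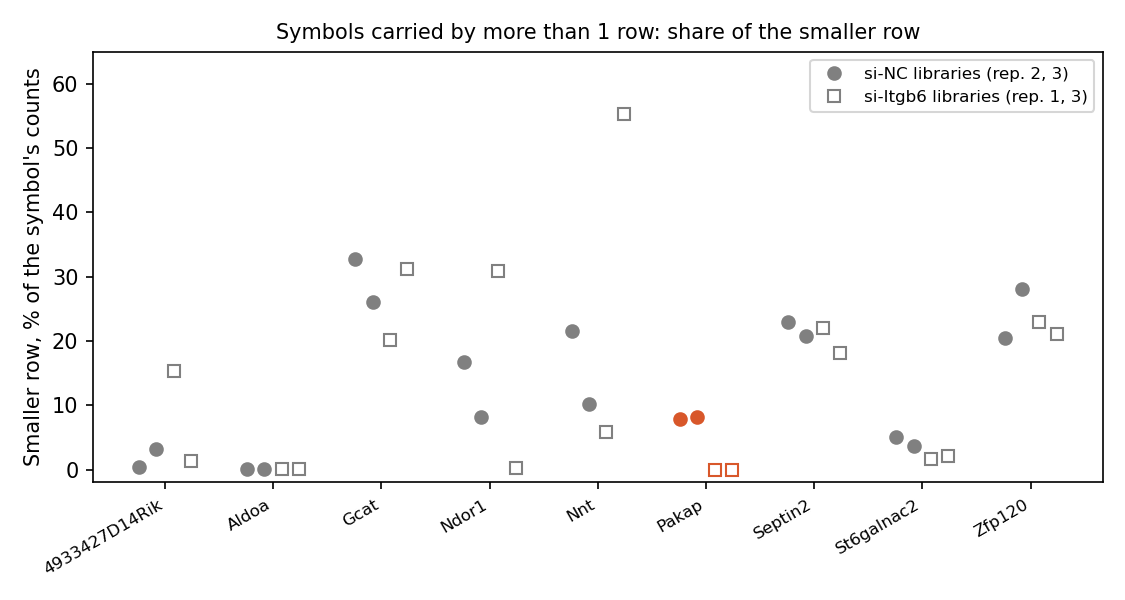
For the 9 symbols that the table gives to more than 1 row with at least 10 counts in a library, the share of the symbol's counts (%) in its smaller row, in each si-NC library (filled circles, replicates 2 and 3) and si-*Itgb6* library (open squares, replicates 1 and 3). *Pakap* (orange) lies near 8% in si-NC and at 0 in si-*Itgb6*, and the shares of 4 of the 8 other symbols (4933427D14Rik, *Gcat*, *Ndor1* and *Nnt*) differ by more than that between the si-*Itgb6* libraries.

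The table gives 20 symbols to more than 1 row, and for 9 of them at least 2 rows reached 10 counts in a library. The smaller row took shares that did not overlap between the groups for 3 of the 9, *Pakap*, *Aldoa* and *St6galnac2*. With 2 libraries per group such a split arises easily by chance, and *Pakap* was chosen on this contrast. The count therefore says nothing particular about these rows. For *Aldoa*, a glycolytic aldolase, those shares were 0.0133% to 0.0193% of the symbol's counts. For *St6galnac2*, a sialyltransferase, they were 4.99% and 3.63% in si-NC and 1.58% and 2.13% in si-*Itgb6*. In *Nnt*, the mitochondrial transhydrogenase, the smaller row ranged from 5.77% to 55.2% and both ends were si-*Itgb6* libraries, although the sum over its rows differed by only 1.16-fold between the lowest and the highest CPM. In *Ndor1*, a flavin oxidoreductase, the ends of the range, 0.264% and 30.9%, were also the si-*Itgb6* libraries, which stood at 15.4% and 1.30% for 4933427D14Rik and at 20.1% and 31.2% for *Gcat*, a glycine pathway enzyme.

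The chromosome around the locus was measured at its 5 nearest listed genes on each side. Before it lie *Ctnnal1*, *Tmem245*, *Frrs1l*, *Epb41l4b* and *Ptpn3*, the nearest of them *Ptpn3*, a tyrosine phosphatase gene, at 132.4 kb. After it lie D630039A03Rik, *Txn1*, *Txndc8*, *Svep1* and *Musk*, and *Txn1*, which encodes thioredoxin, is 46.4 kb away. Of the 10, 5 had enough counts to be tested and none was called by edgeR's quasi-likelihood test, beside 9.57% of all genes tested. *Ctnnal1* and *Ptpn3* had an unadjusted p under 0.05 in that test, beside 18.4% of all genes. These 5 genes are too few to set against those shares, so the counts say nothing particular about the neighbourhood. *Ptpn3* was at 31.1 and 32.1 CPM in si-NC and 37.2 and 35.1 CPM in si-*Itgb6*, with a log2 fold change of 0.21 ± 0.10 (SE) and an adjusted p = 0.251. *Ctnnal1*, an α-catenin relative, had a log2 fold change of 0.23 ± 0.09 and an adjusted p = 0.149. *Txn1* differed by 0.03 ± 0.05 on the log2 scale and *Epb41l4b* by -0.03 ± 0.08. *Frrs1l*, D630039A03Rik, *Svep1* and *Musk* had between 0 and 4 counts in any library, and *Txndc8* had none.

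The partners and relatives of the locus' products were read from lists of cAMP, anchoring and paralemmin genes. These lists hold 76 genes, of which 44 had enough counts to be tested. Of the 44, 1 was called, higher in si-*Itgb6*, and 0 were called lower, beside 9.57% of all genes tested called in either direction, and the median log2 fold change of the 44 was 0.02 against 0.00 over all genes. At an unadjusted p under 0.05 with no threshold on the fold change there were 5 of the 44, beside 18.4% of all genes, and at a Benjamini-Hochberg adjusted p under 0.05 there was 1, beside 4.62% of all genes. With so few genes in each of the lists below, no call or 1 call is near these shares and says nothing particular about a list.

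The called gene was *Palm3*, a paralemmin like *Palm2*. It had 348 and 360 counts in si-NC and 444 and 462 in si-*Itgb6*, and the groups did not overlap. Its log2 fold change was 0.43 ± 0.11 (SE) and its adjusted p = 0.0221 by edgeR's quasi-likelihood test, and both si-*Itgb6* libraries were higher than both si-NC libraries. Of the other paralemmin genes, *Palm* stood at 65.1 and 69.3 CPM in si-NC and 63.3 and 62.5 CPM in si-*Itgb6* with an adjusted p = 0.637, and *Palmd* had too few counts to be tested.

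Among the A-kinase anchoring genes, 16 of 26 were tested and 0 were called by edgeR's quasi-likelihood test, beside 9.57% of all genes. DESeq2 also called 0 of them, beside 703 of all 11727 genes. By edgeR's test 1 had an unadjusted p under 0.05, beside 18.4% of all genes. That gene was *Akap12*, which encodes the scaffold gravin, at 302.6 and 299.9 CPM in si-NC and 334 and 317 CPM in si-*Itgb6*, a log2 fold change of 0.13 ± 0.05 with an adjusted p = 0.167. Per length, *Akap2* ranked ninth of these 27 genes by its mean of 11.5 FPKM. *Ezr*, encoding the membrane-cytoskeleton linker ezrin, led with 81.1 FPKM, and *Akap12* followed with 52.0 FPKM. In si-NC, the 0.733 ± 0.0424 FPKM of *Pakap* lay below *Akap11* at 1.41 ± 0.0205 and above *Akap4* at 0.19 ± 0.0085 (SD, n = 2).

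Protein kinase A, to which the anchoring proteins bind, had 7 of its 9 listed subunit and inhibitor genes tested. None of the 7 was called by edgeR's test or by DESeq2, and 1 had an unadjusted p under 0.05 in edgeR's test. These are too few genes to set against the 9.57% of all genes called by edgeR or the 703 of 11727 called by DESeq2. The regulatory subunit gene *Prkar1a* was at 77.2 ± 0.058 FPKM in si-NC and 77.0 ± 2.23 FPKM in si-*Itgb6*, and the catalytic subunit gene *Prkaca* at 35.8 ± 2.64 and 36.1 ± 3.11 FPKM. *Prkacb*, a second catalytic subunit gene, had a log2 fold change of -0.18 ± 0.09 with an adjusted p = 0.262. Of the enzymes that make cAMP, 2 of 10 adenylyl cyclase genes were tested and 0 were called by edgeR's test or by DESeq2. *Adcy6* was at 52.6 and 52.7 CPM in si-NC and 42.89 and 44.99 CPM in si-*Itgb6*, a log2 fold change of -0.25 ± 0.09 that stayed under the fold threshold, with an unadjusted p = 0.00707 and an adjusted p = 0.0931. Among the phosphodiesterases, which break cAMP down, 0 of 8 tested genes were called and 0 had an unadjusted p under 0.05. Among the effectors and transcription factors 0 of 9 were called and 1, *Creb1*, had an unadjusted p under 0.05, with a log2 fold change of 0.17 ± 0.08 and an adjusted p = 0.258; DESeq2 called 0 genes in either list.

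**Figure D5:**
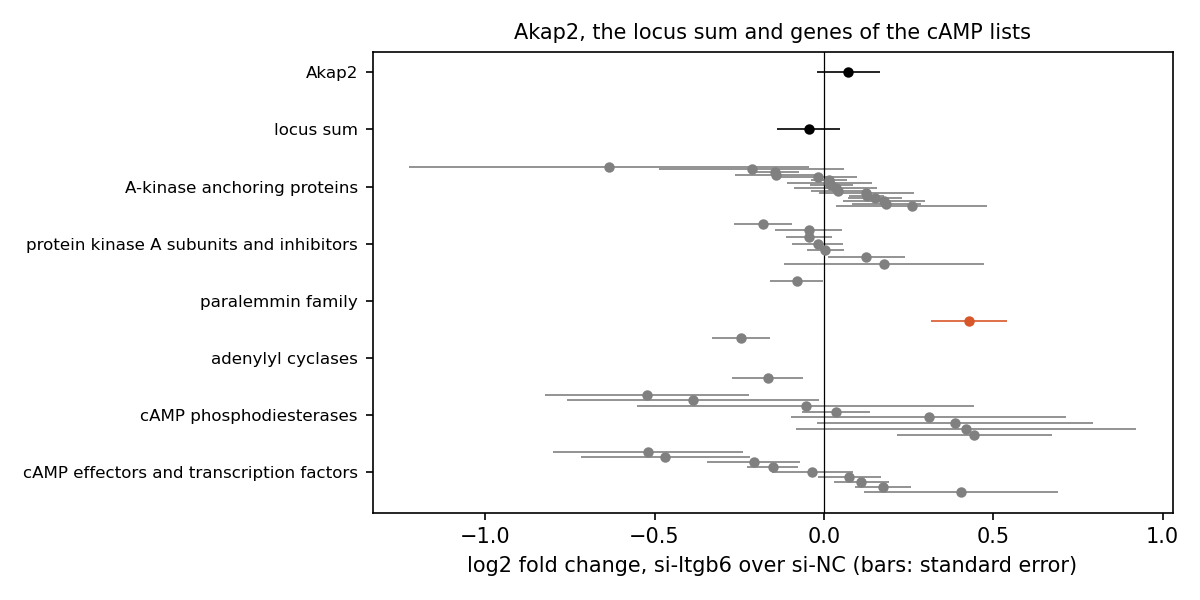
Log2 fold change of si-*Itgb6* over si-NC with its standard error. *Akap2* and the locus sum are black, the 44 tested genes of the cAMP, anchoring and paralemmin lists grey, and the 1 called gene orange. *Akap2* and the locus sum lie within 1 standard error of 0, and *Palm3*, at 0.43, is the called gene.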

How the data were processed

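Polyadenylated RNA of 4 libraries was sequenced in pairs without strand information. The authors deposited FPKM values and, without normalization, the estimated counts of each gene; the files of the single libraries and the table of all libraries held the same values. The aligner, the counting tool and the genome build are not given in the sources used here. The members and the gene lists were chosen with earlier results of these data known. Estimated counts were rounded, filtered with filterByExpr, scaled by TMM and compared in edgeR 4.0.16 (R 4.3.3) by its quasi-likelihood test, with Benjamini-Hochberg adjustment over all genes tested. A call was an unadjusted p under 0.05 with a fold change over 1.2. The test was first run on simulated counts. Chi-square per gene between replicates was 3.15 in si-NC and 4.00 in si-*Itgb6*. Exons came from GENCODE vM21 (GRCm38), where 99.6% of identifiers were found. This may not be the authors' annotation. Named genes were the members, *Itgb6*, called list genes, 5 neighbours on each side and the 5 rows most like *Pakap*. List genes with an unadjusted p under 0.05, the rows of 1 symbol and the abundant genes of the lists were named after their values were seen.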

Additional observations from a re-analysis of the deposited data

How the results depend on the processing

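The differences of *Akap2*, *Pakap* and *Palm2* moved by no more than the spread between replicates under RLE factors and library size only. So did *Akap2* under other filters, DESeq2 1.42.0, the exact test and FPKM. With 2 libraries per group, leaving 1 out moves a group mean by less than their SD, so that alternative could not fail. The *Pakap* share, a mean over the si-NC libraries, was tried only by leaving out a library. Leaving out a library gave log2 fold changes of -0.04 to 0.18 for *Akap2* and -0.16 to 0.07 for the locus sum, and -3.90 to -3.61 CPM for *Pakap*. The locus sum was -0.05 without *Palm2*, and -4.84 for *Pakap* and *Palm2* alone, which leaves out *Akap2*. It was -0.12 in FPKM and -0.04 with all overlapping genes summed, both chosen after seeing the data. Genes called numbered 1122, against 703 with DESeq2, 542 by adjusted p, and 740 to 1347 with a library left out; 740 was without si-NC replicate 2, when adjusted calls fell to 13. List genes called numbered 1, against 4 with no filter, where *Pde4d*, *Crtc1* and *Popdc2* joined *Palm3*, and 1 to 3 with a library left out, with 3 without either si-*Itgb6* replicate and without si-NC replicate 3. *Palm3* was called under each of these 10 alternatives. *Pakap* and *Palm2* gave CPM differences, on which filters and tests do not act, and FPKM is another unit, so those alternatives have no value here. No paired analysis was possible because the groups share only replicate number 3. With 2 libraries per group and 647 to 809 counts over the locus, the standard error of the sum's log2 fold change, 0.09, sets the change that could be seen.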
